A study of Homo sapiens with 10 samples.

Results

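Human mitochondrial DNA carries 37 genes, and all 37 were listed in the table of normalized counts from HEK293T cells, among 78894 genes in all. They were taken as every gene on the mitochondrial chromosome of GRCh38 in GENCODE release 44, and each has a symbol that starts with MT-. They comprise 13 protein-coding genes, each called an mRNA here, 2 rRNAs and 22 tRNAs. HEK293T, an established line from human embryonic kidney, was grown for 24 h in medium without cysteine (labelled 0X-Cys, 2 libraries), in complete medium (1X-Cys, 4 libraries) or in medium with 10 times the cysteine of complete medium (10X-Cys, 4 libraries), and poly(A)-selected RNA was sequenced as paired reads. No genetic change is named for any of the cells. The study's methods for cysteine manipulation describe seeding in cysteine-containing medium on the day before and the same base medium with methionine for every group. The methods for the RNA samples refer only to a starvation treatment described before, and another such protocol there changes the base medium and serum as well, so whether cysteine alone differed is not settled by the sources used here. The labels call the libraries of a medium biological replicates, and the methods describe wells of a single line, so the p-values measure the spread between such wells. In bulk RNA, fewer cells that hold a transcript and less of it in every cell cannot be told apart.

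Mitochondrial DNA is transcribed from promoters in its control region into RNAs that span many genes. Transcription of the heavy strand starts next to MT-TF and runs through both rRNAs and then through most mRNAs and tRNAs, while the light strand gives MT-ND6 and the remaining tRNAs. The tRNAs lie between the other genes, and their excision releases the rRNAs and mRNAs. The 13 mRNAs encode subunits of respiratory complexes I (7 genes), III (1 gene) and IV (3 genes) and of the ATP synthase, complex V (2 genes). In the reference, 28 genes lie on the plus strand and are called heavy-strand genes here, and 9 lie on the minus strand and are called light-strand genes. Most mitochondrial mRNAs are polyadenylated, which brings them into a poly(A)-selected library. The rRNAs carry only short tails and mature tRNAs end in CCA, so reads on the latter can come from precursors or from neighbouring transcripts.

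The tail also completes the message in several cases. By their annotated ends in the reference, 6 of the 13 mRNA genes end inside a stop codon, and added A residues finish it. The end falls after T in 5 of them and after TA in MT-ND1. MT-ATP6 is annotated to end 1 base inside MT-CO3 and is not counted among the 6, so the count holds for annotated ends only. The last 18 bases before the unfinished codon are shown 5′ to 3′ on the coding strand of GRCh38, with the codon's bases in capitals, because these are the ends that poly(A) selection captures:
MT-ND1: agcattccccctcaaaccTA
MT-ND2: tttatactaataatcttaT
MT-CO3: atctattgatgagggtctT
MT-ND3: ggattagactgaaccgaaT
MT-ND4: attaccgggttttcctctT
MT-CYB: aaaatactcaaatgggccT

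Each deposited value is a read count divided by the size factor of its library, and is called a normalized count here. The reads recovered from these values numbered 34836014 to 61654861 on genes per library. The number of libraries, rather than depth, limited the precision of most genes. In excess medium, however, a tRNA gene held as few as 2 reads in a library and 404 at most, against 106 to 6226 in complete medium. All 37 genes passed the filter on low values, which asked 3 of the 10 libraries to reach 10 normalized counts. The VIM, NEFM, PAX2 and LHX1 transcripts known from HEK293T were present in every library (103 normalized counts or more). The leukocyte marker CD3E was at 0 in all of them and PTPRC at 4.36 or less, the endothelial CDH5 and PECAM1 at 13.6 or less and the hepatocyte ALB and APOA1 at 21.0 or less, while the fibroblast gene COL1A1 lay between 605 and 1002. Excess replicate 1 was the deepest library and stood above the other excess libraries in every mitochondrial mRNA. Its own value is therefore given beside the mRNA shares of reads, and the means include it.

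In complete medium, the mitochondrial genes took 4.71% ± 0.25 of the reads (SD, n = 4). Of these mitochondrial reads, 81.3% ± 0.560 lay on mRNAs, 16.4% ± 0.492 on rRNAs and 2.29% ± 0.0846 on tRNAs. By the counts assigned to the genes themselves, the most abundant mRNA per length was MT-ATP8, a subunit of the ATP synthase, at 287650 normalized counts per kb. It was followed by MT-ATP6 at 257070, MT-CO3 at 226550, MT-CO2 at 209480 and MT-CO1 at 197880 normalized counts per kb. MT-ND5 and MT-ND6 were lowest, at 66148 and 59616 normalized counts per kb, and the span from highest to lowest was 4.83-fold. Complex V and IV subunits filled the upper 5 places and complex I subunits the lower 4. These levels leave out reads assigned to nuclear copies, which were unequal between genes. In complete medium MTCO1P12 held 58068 normalized counts, MTND2P28 50196, MTATP6P1 42367 and MTATP8P1 966. The order and the span therefore hold only for the counts as assigned. Steps between neighbours in this order were often within the spread of the libraries: the ranges of MT-ATP8 and MT-ATP6 overlapped, as did those of MT-CO3 with MT-CO2 and of MT-CO2 with MT-CO1. MT-CO1 stood above MT-ND2, the next gene, in every library and without overlap.

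**Figure D1:**
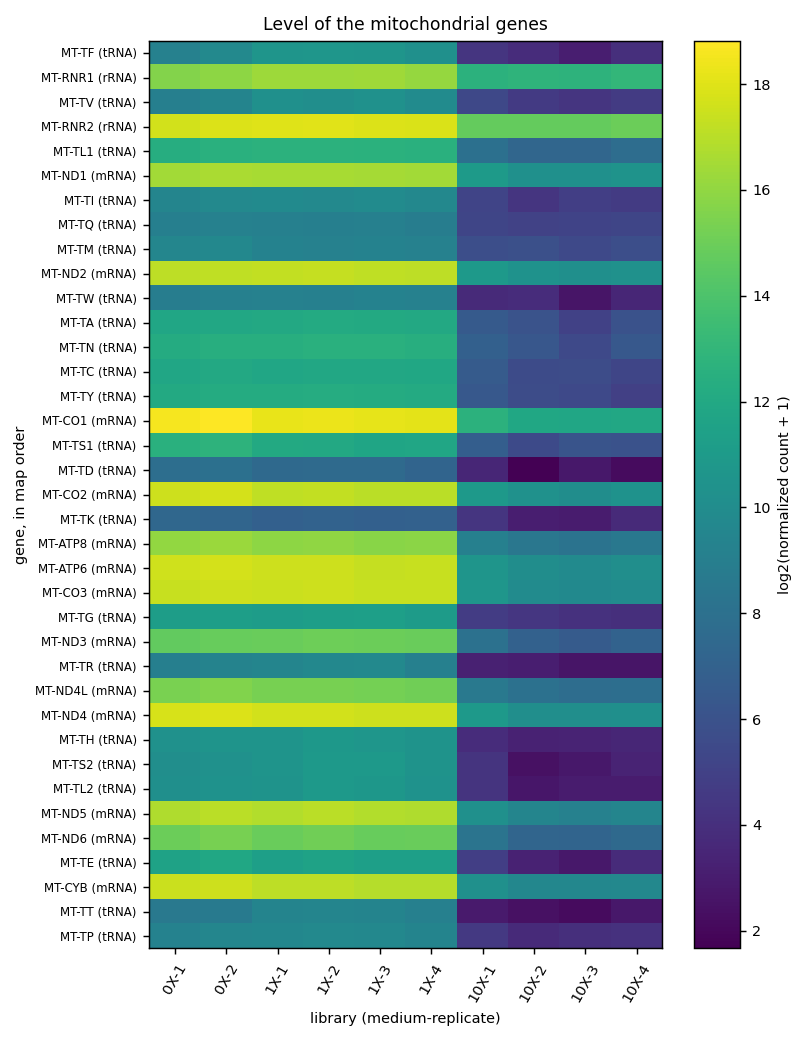
Level of each of the 37 genes in each library, in the order of the mitochondrial DNA, with colour for log2(normalized count + 1) and columns named by medium and replicate. The 4 excess (10X) libraries are darker than the other 6 in every row, and MT-RNR1 and MT-RNR2 are the brightest rows within them.

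Several of these genes share bases, and the way reads on shared bases were counted bears on their values. MT-ATP8 and MT-ATP6 share 46 bases and are translated from 1 mRNA, and MT-ND4L and MT-ND4 share 7 bases. The MT-ATP8 gene (chrM:8366-8572, plus strand) is shown with the bases it shares with MT-ATP6 in capitals, followed by the last 60 bases of MT-ND4L (chrM:10707-10766, plus strand) with those it shares with MT-ND4 in capitals:
MT-ATP8: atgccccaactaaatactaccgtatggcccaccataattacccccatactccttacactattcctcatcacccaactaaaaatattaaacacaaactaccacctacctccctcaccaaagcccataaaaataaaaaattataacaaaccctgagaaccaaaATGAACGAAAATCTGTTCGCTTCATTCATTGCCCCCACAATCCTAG
MT-ND4L: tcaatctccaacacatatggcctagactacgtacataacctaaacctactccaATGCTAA
The level of MT-ATP8 per kb was 1.12 ± 0.0324 times that of MT-ATP6 in complete medium (SD, n = 4), although most fragments on a gene of 207 bases would also touch its neighbour. It was 1.15 ± 0.0214 times in cysteine-free medium (n = 2) and 1.09 ± 0.0588 times in excess medium (n = 4). The study's methods state that ambiguous reads, those on more than a single gene, were left out of the counts. The densities as counted show no such loss for MT-ATP8. However, the nuclear copy MTATP6P1 held 42367 normalized counts in complete medium and MTATP8P1 966. With reads divided so unequally between gene and copy, the densities do not settle how reads on shared bases were counted. The exact test of the MT-ATP8 to MT-ATP6 ratio gave p = 0.33 for cysteine-free against complete medium and p = 0.46 for excess against complete medium, with log2 differences of 0.04 and -0.04. MT-ND4L to MT-ND4 differed by -0.07 and 0.07 on the log2 scale, with exact p = 0.33 and p = 0.34. The groups overlapped for both ratios in both comparisons, although single libraries left the range of the complete ones: MT-ND4L to MT-ND4 was 0.234 in excess replicate 2 and 0.187 in cysteine-free replicate 1, against 0.190 to 0.212 in complete medium. With 2 libraries against 4 the exact p cannot go below 0.067, so the cysteine-free test does not show that the ratios were equal.

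Without cysteine, the mitochondrial RNAs split by gene rather than moving as a set. The mRNAs of MT-CO1, MT-CO2, MT-CYB, MT-ND4 and MT-ATP8 were higher, the small rRNA MT-RNR1 and the tRNA genes MT-TF, MT-TV, MT-TT and MT-TS2 were lower, and those of MT-TS1 and MT-TM were higher. A gene was called when its limma p, computed on log2(normalized count + 1) and adjusted by Benjamini-Hochberg over 29045 genes, did not exceed 0.01. By this rule 7 of the 37 genes rose and 5 fell, against a background of 7.39% of all genes tested called higher and 8.51% called lower, 15.9% in all. The libraries of the 2 media did not overlap for 22 of the 37, with 11 on either side, where 23.3% of all genes tested lay apart on the higher side and 23.6% on the lower side, 46.9% in all. With a threshold of 0.05, 19 of the 37 were called, beside 27.5% of all genes tested. By class, 5 of 13 mRNAs were called higher and 0 lower, 1 of 2 rRNAs was called lower, and 2 tRNA genes were called higher and 4 lower of 22. The median log2 fold change of the 13 mRNAs was 0.21 with a range from -0.17 to 0.49, beside a median of 0.00 over all genes tested. The 2 cysteine-free libraries differed in overall mitochondrial level, and the calls rest on both. Without cysteine-free replicate 1, 6 of the 37 genes were called (4 higher, 2 lower) beside 4.12% of all genes, MT-RNR1 and MT-TT not among them, and without cysteine-free replicate 2, 4 were called, none of them higher (limma, 22 of 37 with an unadjusted p under 0.05), beside 3.37% of all genes. MT-TM and MT-TS2 also lost their calls without complete replicate 1 or complete replicate 2.

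The 3 subunits of complex IV, which transfers electrons to oxygen, did not behave alike. MT-CO1, its catalytic subunit, had normalized counts of 398364 and 462738 in the cysteine-free libraries and of 314313, 328126, 291828 and 286280 in the complete ones. Both cysteine-free values lay above all 4 complete values, and the log2 fold change was 0.49 (standard error 0.064; adjusted p = 1.03e-04 by limma). MT-CO2, which receives electrons from cytochrome c, had 185286 and 216659 against 151469, 153727, 133693 and 134241, again without overlap (0.49 on the log2 scale, standard error 0.069, limma adjusted p = 2.14e-04). MT-CO3 had 173809 and 186021 against 182354, 183596, 173276 and 171226. Here the groups overlapped, and the log2 fold change of 0.02 (standard error 0.046) did not pass the test. With quantile normalization the log2 fold change of MT-CO1 was 0.20 and not called (adjusted p = 0.027 by limma), while MT-CO2 was called at 0.35. MT-CO3 was called lower under it, at -0.18 (limma adjusted p = 2.00e-03).

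MT-CYB, the only mitochondrial subunit of complex III, had normalized counts of 178857 and 190649 without cysteine and of 143134, 142415, 124258 and 125340 in complete medium. The groups did not overlap, and the difference was 0.47 on the log2 scale (standard error 0.062, adjusted p = 1.14e-04 by limma). Among complex I subunits, which form the entry point for electrons from NADH, MT-ND4 was the only one of 7 called by limma, at 0.28 (standard error 0.056, limma adjusted p = 2.13e-03). MT-ND4L, at 0.21 (limma adjusted p = 0.019), was called higher by edgeR (adjusted p = 7.09e-03) and DESeq2 (adjusted p = 7.49e-03), with libraries scaled to equal totals and with quantile normalization (0.27). The value of MT-ND3 was -0.17 (standard error 0.054, adjusted p = 0.028), that of MT-ND2 was -0.06 and that of MT-ND1 was 0.04, and none of the 3 passed. With quantile normalization MT-ND2 was called lower at -0.22 (limma adjusted p = 3.88e-03). In complex V, MT-ATP8 was called at 0.27 (adjusted p = 3.21e-03), while MT-ATP6 at 0.23 (adjusted p = 0.014) missed the threshold with limma and passed it with edgeR on the recovered reads (adjusted p = 4.72e-03). With the replicate number as a block, MT-ATP8 and MT-ND4 were not called, and 6 of the 37 genes were called higher and 9 lower, beside 22.5% of all genes called under the block.

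Of the first 6 genes after the heavy-strand promoter, MT-TF, MT-RNR1 and MT-TV were called lower, and MT-RNR2, MT-TL1 and MT-ND1 were not called. MT-RNR1, the rRNA of the small mitochondrial ribosomal subunit, had 51119 and 62361 normalized counts without cysteine and 82175, 82299, 84131 and 71126 in complete medium. Every cysteine-free value was below every complete value, a difference of -0.50 on the log2 scale (standard error 0.076, adjusted p = 3.67e-04 by limma). MT-RNR2, the rRNA of the large subunit, overlapped between the media, at 207793 and 243080 against 260585, 273811, 249281 and 232341 (-0.17, standard error 0.067, adjusted p = 0.071). With quantile normalization it was called lower at -0.31 (limma adjusted p = 3.02e-04). MT-TF (phenylalanine), the first gene of the heavy strand, had 597 and 836 against 1537, 1605, 1541 and 1222 (log2 fold change -1.05, standard error 0.13, limma adjusted p = 6.63e-05). MT-TV (valine), between the rRNAs, had 536 and 676 against 1244, 1132, 1274 and 973 (-0.93, standard error 0.12, limma adjusted p = 8.03e-05). The rRNAs are not stably polyadenylated, so their levels in these libraries are those of the RNA that poly(A) selection retained.

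Further along the heavy strand the tRNA genes did not share a direction. MT-TT (threonine), after MT-CYB, had 394 and 420 normalized counts without cysteine and 683, 708, 692 and 570 in complete medium, without overlap (log2 fold change -0.70, standard error 0.11, limma adjusted p = 3.24e-04). Its neighbour MT-CYB was higher in the same libraries. MT-TS1 (serine) was the most raised of the 37 genes, at 5935 and 6869 against 4316, 4142, 3410 and 3525 (0.74, standard error 0.092, limma adjusted p = 7.93e-05). MT-TS1 lies directly behind MT-CO1 on the opposite strand, and the mature MT-CO1 mRNA runs on through its complement. The level of MT-TS1 per kb was 0.333 and 0.332 times that of MT-CO1 without cysteine and 0.261 to 0.307 times in complete medium. Since the strand setting of the counting is not given in the sources used here, reads of MT-TS1 and of the end of MT-CO1 cannot be told apart. MT-TK (lysine), between MT-CO2 and MT-ATP8, was at 167 and 153 against 123 to 131 normalized counts, apart from the complete libraries but not called (0.34, standard error 0.15, adjusted p = 0.12).

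The genes of these tRNAs, the 3 called lowest and the one called highest, with MT-TK for comparison, are given 5′ to 3′ on their own strand from GRCh38 with the anticodon in capitals. MT-TF lies at chrM:577-647, MT-TV at chrM:1602-1670 and MT-TT at chrM:15888-15953 on the plus strand, MT-TK at chrM:8295-8364 on the plus strand, and MT-TS1 at chrM:7446-7514 on the minus strand:
MT-TF: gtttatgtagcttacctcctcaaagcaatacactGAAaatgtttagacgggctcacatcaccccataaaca
MT-TV: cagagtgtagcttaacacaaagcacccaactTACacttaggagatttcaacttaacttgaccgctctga
MT-TT: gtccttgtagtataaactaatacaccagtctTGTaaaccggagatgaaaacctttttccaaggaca
MT-TS1: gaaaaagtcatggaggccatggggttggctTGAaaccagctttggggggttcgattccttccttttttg
MT-TK: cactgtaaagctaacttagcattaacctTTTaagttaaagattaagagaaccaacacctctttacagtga
The 5 genes run from 66 to 71 bases, shorter than a pair of reads, so that longer fragments reach into the neighbouring genes.

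**Figure D2:**
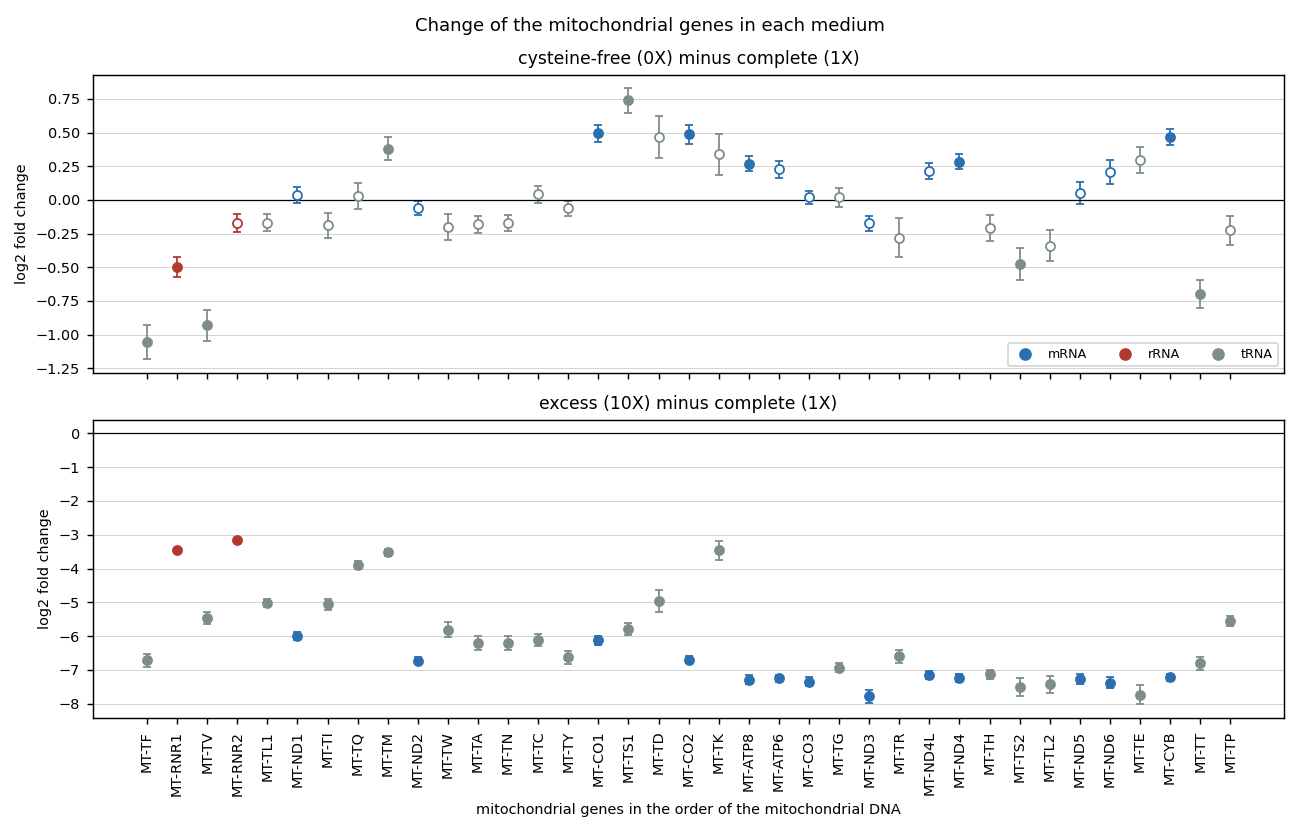
Log2 fold change of the 37 genes against complete medium in map order, for cysteine-free (upper panel) and excess medium (lower panel), with bars for the standard error of limma's fit; filled points passed the threshold of 0.01 on the adjusted p and open points did not. Without cysteine the points lie on both sides of 0, from -1.05 for MT-TF to 0.74 for MT-TS1, whereas in excess medium all 37 lie between -7.79 and -3.14.

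Light-strand transcription is represented by MT-ND6, a complex I subunit, and 8 tRNA genes. MT-ND6 had 31696 and 41057 normalized counts without cysteine and 30951, 35064, 28998 and 30181 in complete medium, so the groups overlapped (0.21, standard error 0.088, adjusted p = 0.097). The mature MT-ND5 mRNA runs through the complement of MT-ND6 and MT-TE, and the level of MT-ND6 per kb was 0.901 ± 0.0242 times that of MT-ND5 in complete medium (SD, n = 4). It was 0.985 and 1.03 times that of MT-ND5 in the 2 cysteine-free libraries. Reads of MT-ND6 and MT-ND5 cannot be told apart for the same reason as those of MT-TS1, and none of the light-strand values can be read as light-strand RNA alone. The 8 light-strand tRNA genes had a median log2 fold change of -0.02, with MT-TS1 the only one called, while the 14 heavy-strand tRNA genes had a median of -0.20, with 1 called higher and 4 lower.

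Ratios within a library compare mitochondrial RNAs with each other and are not affected by its scaling apart from the pseudocount. Of 12 ratios computed in each library, 8 did not overlap between cysteine-free and complete medium, 2 higher and 6 lower. With 2 libraries against 4, the exact permutation test (2-sided) cannot go below p = 0.067, and each of the 8 had this p (adjusted p = 0.10 over the 12 ratios), so none passed 0.05. The rRNA to mRNA ratio of normalized counts was 0.138 and 0.145 without cysteine and 0.193 to 0.211 in complete medium. MT-CYB to MT-ND1, a distal against a proximal mRNA of the heavy strand, was 2.00 and 1.85 against 1.36 to 1.49. MT-RNR1 to MT-RNR2 was 0.246 and 0.257 against 0.301 to 0.338, and MT-TF to MT-RNR1 was 0.0117 and 0.0134 against 0.0172 to 0.0195. The 6 heavy-strand complex I mRNAs stood at 0.362 and 0.360 times the 3 complex IV mRNAs (geometric means of counts), against 0.425 to 0.448 times in complete medium. As a share of the reads, mitochondrial genes took 5.15% and 5.71% in cysteine-free medium against 4.51% to 5.05% in complete medium (exact permutation test, p = 0.067, adjusted p = 0.078 over 7 shares).

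In excess cysteine, all 37 mitochondrial genes were lower, the mRNAs by 62.7-fold to 207-fold in the means of their normalized counts and the rRNAs by 8.84-fold and 10.9-fold. For every class these are levels of the RNA that poly(A) selection retained. Each of the 37 was called lower by limma, against a background of 22.9% of all genes tested called lower and 23.1% called higher, 46.0% in all. None overlapped between the groups, where 25.5% of all genes tested lay apart on the lower side and 26.1% on the higher side, 51.6% in all. On the log2 scale the tRNA genes ranged from -7.74 to -3.47, with a median of -6.15, beside a median of 0.01 over all genes tested. Scaling the libraries to equal totals moved that median of all genes from 0.01 to 0.12, and turned the split of all calls from 6721 higher and 6651 lower to 8409 and 5197. All 37 genes were called lower under it as well. Mitochondrial mRNAs took 0.0379% ± 0.0112 of the reads in excess and 3.83% ± 0.206 in complete medium (SD, n = 4 each), a 101-fold difference. Excess replicate 1 had 0.0545%, and the other excess libraries 0.0303% to 0.0339%. For rRNAs the shares were 0.0895% ± 0.00535 and 0.771% ± 0.0467, 8.61-fold apart, and for tRNA genes 0.00198% ± 0.000596 and 0.108% ± 0.00572, 54.4-fold apart. The exact permutation test (2-sided) gave p = 0.029 for each class, the smallest that 4 libraries against 4 allow.

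**Figure D3:**
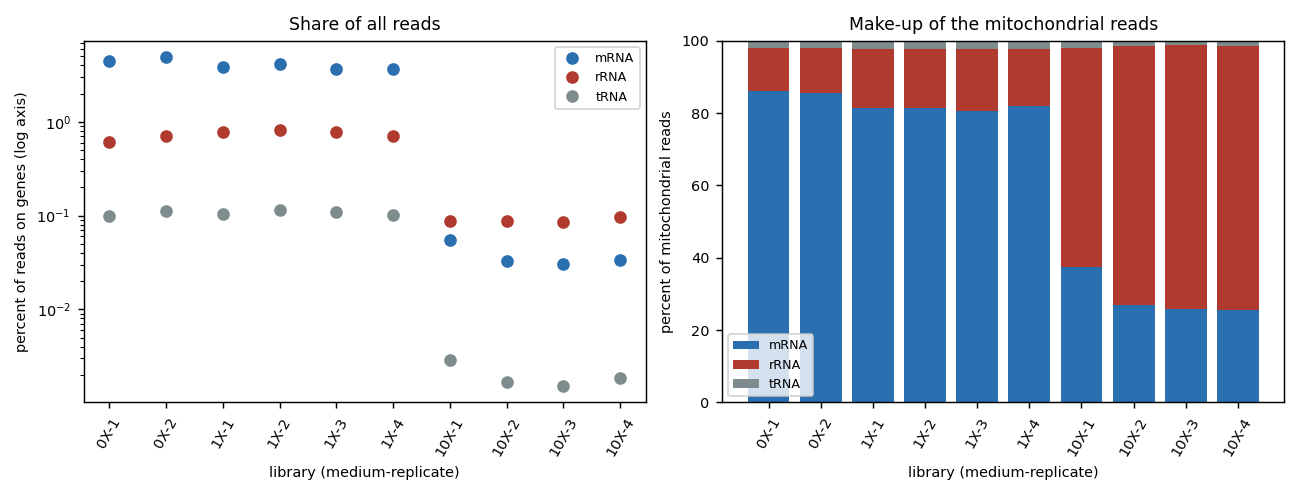
Reads on mitochondrial mRNAs, rRNAs and tRNAs in each library as a percentage of all reads on genes (left, log axis) and of mitochondrial reads (right, stacked to 100%). In cysteine-free and complete medium mRNAs hold 80.6% to 86.1% of the mitochondrial reads, and in excess medium rRNAs hold 60.7% to 73.1% of them.

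The classes changed places in excess medium, within the RNA that poly(A) selection retained. Tails were not measured, and whether retention of a class differed between the media was not tested. The rRNAs held 69.6% ± 5.94 of the mitochondrial reads there (SD, n = 4), against 16.4% ± 0.492 in complete medium, and mRNAs held 28.9% ± 5.65 against 81.3% ± 0.560 (exact permutation test, p = 0.029 for each). The rRNA to mRNA ratio of normalized counts was 1.63, 2.64, 2.82 and 2.87 in the 4 excess libraries and 0.193 to 0.211 in the complete ones. The lowest of the 4, 1.63, belonged to excess replicate 1. In that library mRNAs held 37.3% of the mitochondrial reads, against 25.5% to 27.1% in the other excess libraries. MT-RNR1 had 6751, 7335, 6880 and 8362 normalized counts in excess medium against 71126 or more in complete medium (log2 fold change -3.45, standard error 0.061, limma adjusted p = 8.95e-17). MT-RNR2 had 28321, 27732, 27521 and 31311 against 232341 or more (-3.14, standard error 0.048, limma adjusted p = 2.55e-17). Unlike for the mRNAs, excess replicate 1 lay within the range of the other libraries for MT-RNR2 and below it for MT-RNR1. The ratio of MT-RNR1 to MT-RNR2 was 0.255 ± 0.0134 in excess and 0.315 ± 0.0163 in complete medium (SD, n = 4 each), a log2 difference of -0.30 (exact p = 0.029, adjusted p = 0.038).

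Among the mRNAs, the 4 nearest the heavy-strand promoter on the map were lowered less than the other 9, which include the light-strand MT-ND6. MT-ND1, the first of the 4, had 2086, 1215, 1240 and 1428 normalized counts in excess and 95903, 97518, 91662 and 89044 in complete medium (-6.00, standard error 0.12, limma adjusted p = 2.32e-16). MT-CO1 had 6564, 3865, 3599 and 3938 in excess medium (-6.13, standard error 0.13), and its highest value was in replicate 1. MT-CO2 was at -6.70 and MT-ND2 at -6.72, whereas the 9 mRNAs from MT-ATP8 onward lay between -7.79 and -7.16. MT-ND3, a small membrane subunit of complex I, was lowest, with 263, 125, 96.4 and 135 in excess against 30574, 33868, 32642 and 30829 in complete medium (-7.79, standard error 0.19, limma adjusted p = 5.61e-15). Over the 12 heavy-strand mRNAs the Spearman correlation of the log2 fold change with map position was -0.54 and the Pearson correlation -0.73, as a description of genes that share libraries and precursors. Without cysteine the corresponding values were 0.08 and 0.19.

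The make-up of the mRNA pool differed accordingly. MT-CO1 made up 17.1% ± 0.577 of the summed mRNA level per kb in excess medium, 9.74% ± 0.102 in complete medium (SD, n = 4 each) and 11.6% ± 0.292 in cysteine-free medium (SD, n = 2). MT-ND1 made up 9.23% ± 0.527, 4.82% ± 0.0915 and 4.19% ± 0.0858 in the same order. MT-ND3 fell to 2.55% ± 0.459 from 4.56% ± 0.269, with 3.42% ± 0.0645 in cysteine-free medium. MT-CYB was at 4.74% ± 0.202 in excess, 5.77% ± 0.158 in complete and 6.76% ± 0.241 in cysteine-free medium. For MT-CO1, MT-ND1, MT-ND3 and MT-CYB neither treated medium overlapped with complete medium. By complex, complex IV mRNAs held 37.7% ± 0.0838 of the pool in excess against 31.2% ± 0.122 in complete and 33.5% ± 0.341 in cysteine-free medium. Complex V mRNAs held 21.4% ± 0.551 in excess against 26.8% ± 0.431 in complete and 27.0% ± 0.272 in cysteine-free medium. The pool is summed over genes, so the 1 mRNA of MT-ATP8 and MT-ATP6 enters the complex V share under both. Reads assigned to nuclear copies are left out of the pool, so the shares hold only for the counts as assigned. The complex I share of 36.1% ± 0.443 in excess lay within the spread of the 36.2% ± 0.558 in complete medium. Without cysteine the complex I share was 32.7% and 32.9%, below the 35.6% to 36.95% of the complete libraries. The most abundant mRNA per kb in excess medium was MT-CO1, and the span from highest to lowest was 7.78-fold, against 4.83-fold in complete and 5.04-fold in cysteine-free medium.

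**Figure D4:**
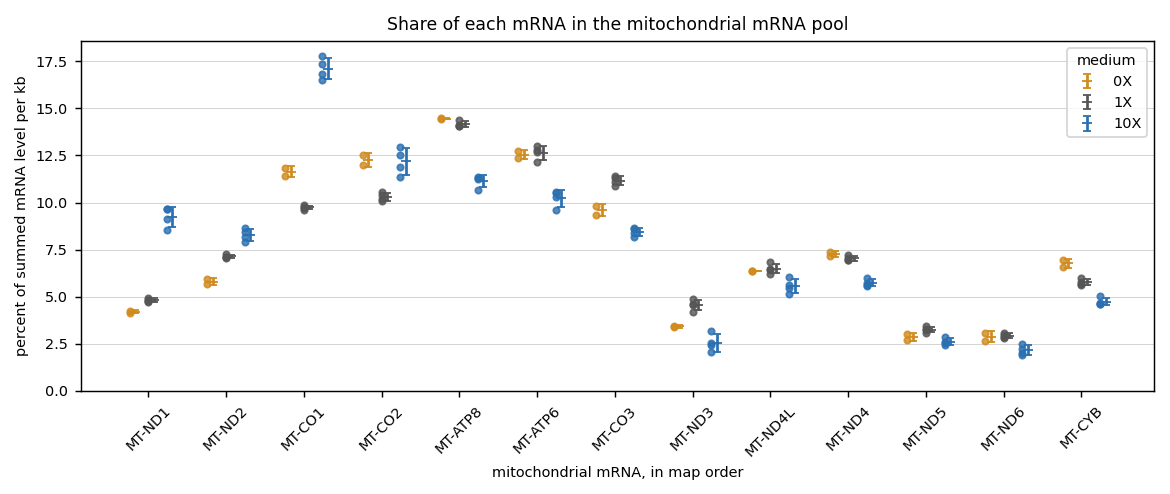
Share of each of the 13 mRNAs in the summed mRNA level per kb (percent), in map order; points are libraries, and horizontal marks with bars are the mean and SD of each medium (n = 2, 4 and 4 for 0X, 1X and 10X). MT-CO1 reaches 17.1% in excess medium against 9.74% in complete medium, while the shares from MT-ATP8 onward are lower in excess than in complete medium.

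The tRNA genes held the widest range of changes in excess medium. MT-TE (glutamate), MT-TS2 (serine) and MT-TL2 (leucine), in the distal part of the map, were at -7.74, -7.50 and -7.43 on the log2 scale. MT-TK was at -3.47 (standard error 0.27), MT-TM (methionine) at -3.52 (0.11) and MT-TQ (glutamine) at -3.90 (0.11), values closer to those of the rRNAs than of the mRNAs beside them. MT-TK had 19.3, 7.61, 6.83 and 11.9 normalized counts in excess medium, from 7 to 30 reads per library, against 123 to 131 in complete medium. The MT-TK to MT-CO2 ratio was 0.00854 ± 0.00195 in excess and 0.000892 ± 6.57e-05 in complete medium, a log2 difference of 3.23 (exact p = 0.029, adjusted p = 0.038). MT-TM had 55.2, 56.5, 41.8 and 54.4 against 576 to 630, whereas MT-ND2, the mRNA directly behind it, was 104-fold lower. MT-TF was at -6.72 beside MT-RNR1 at -3.45, and the MT-TF to MT-RNR1 ratio was 0.00201 ± 0.000725 against 0.0184 ± 0.000961 (log2 difference -3.27, exact p = 0.029, adjusted p = 0.038). MT-TL1 (leucine), between MT-RNR2 and MT-ND1, fell to 0.145 ± 0.0330 times the level of MT-RNR2 per kb from 0.521 ± 0.0160, and stood at 1.73 ± 0.179 times that of MT-ND1 against 0.867 ± 0.00684.

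Of the 12 ratios, 9 passed an adjusted p of 0.05 between excess and complete medium (exact permutation test, p = 0.029 for each, adjusted p = 0.038), 3 higher and 6 lower. MT-CYB to MT-ND1 was 0.614 ± 0.0286 against 1.43 ± 0.0602, a log2 difference of -1.22. Cysteine-free medium had moved away from complete medium on the other side, to 1.93 ± 0.108 (n = 2). Heavy-strand complex I to complex IV mRNAs stood at 0.353 ± 0.0110 against 0.437 ± 0.00931, and cysteine-free medium at 0.361 ± 0.00149 was on the same side. The rRNA to mRNA ratio was higher in excess by 3.59 on the log2 scale and differed by -0.51 in cysteine-free medium, and the tRNA to mRNA ratio differed by 0.89 and -0.31. MT-ND6 to the 12 heavy-strand mRNAs was lower in excess by -0.37 on the log2 scale, and MT-ND3 to MT-CO3 by -0.44. Neither of these 2 passed when any 1 complete library was left out (exact permutation test, adjusted p = 0.069 to 0.076). Light-strand to heavy-strand tRNAs did not pass (log2 difference -0.13, exact p = 0.086). Both comparisons use the same complete libraries, so the values of the media are given side by side and their resemblance was not tested. With the replicate number as a block, 4 pairs cannot bring the exact p below 0.05, and none of the 12 ratios passed.

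**Figure D5:**
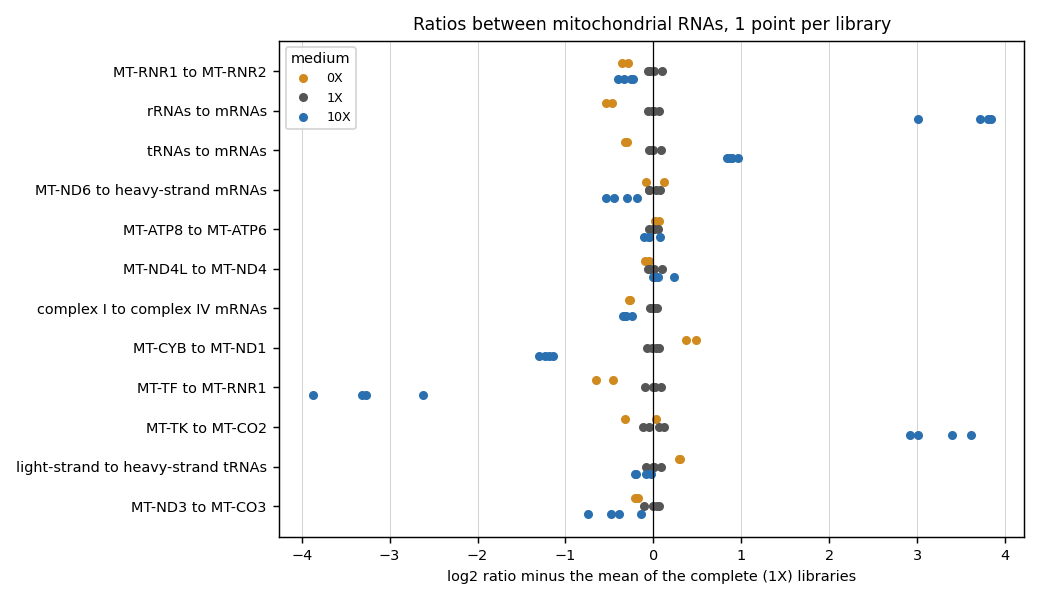
The 12 ratios in each library as log2 ratio minus the mean of the complete libraries, 1 point per library and colour for the medium. The rRNA to mRNA and MT-TK to MT-CO2 ratios of the excess libraries lie at the right, MT-TF to MT-RNR1 and MT-CYB to MT-ND1 at the left, and the media overlap for MT-ATP8 to MT-ATP6 and MT-ND4L to MT-ND4.

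Nuclear chromosomes carry copies of mitochondrial genes, and reads of the original can align to them. The table held 404 pseudogenes named after mitochondrial genes, of which 19 passed the filter on low values. In excess medium 14 of the 19 were called lower and 0 higher, beside 22.9% and 23.1% of all genes tested. Some of the 14 passed the filter only through the other media. MTND6P4 had 64.1 normalized counts in complete and 1.87 in excess medium, MTCO1P40 32.7 and 1.71, and MTCO2P2 26.1 and 0.160. For such copies hardly any call but a lower one was possible, so the count adds no support to the fall of the 37 genes. In cysteine-free medium 4 were called higher and 0 lower, beside 7.39% and 8.51%. The copies with the highest levels in complete medium were MTCO1P12, MTND2P28 and MTATP6P1, all on chromosome 1. MTCO1P12 had 58068 ± 4869 normalized counts in complete, 86518 ± 9914 in cysteine-free and 812 ± 245 in excess medium, with log2 fold changes of 0.57 without cysteine and -6.20 in excess. MTND2P28 was at -0.02 and -7.00 and MTATP6P1 at 0.27 and -7.25. The sequence of such copies is close to that of the mitochondrial gene, so the division of reads between a gene and its copy is uncertain, and the counts of the 37 genes leave out whatever was assigned to copies.

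The nuclear genes that transcribe, process and maintain mitochondrial nucleic acids are listed as 32 genes, all of which passed the filter. Without cysteine 1 was called higher and 15 lower (limma), beside 7.39% and 8.51% of all genes tested. In excess medium 2 were called higher and 17 lower, beside 23.1% and 22.9%. The median log2 fold changes were -0.24 and -0.20. By the naming rule, the largest decreases without cysteine were in FASTKD5, an RNA-binding protein of mitochondrial RNA granules (-1.05, limma adjusted p = 1.65e-06), and TFB2M, which melts mitochondrial promoters for the polymerase (-1.0, limma adjusted p = 4.47e-06). The only increase was in TK2, the mitochondrial thymidine kinase (1.35, limma adjusted p = 1.02e-04). In excess medium the largest decreases were in HSD17B10, a subunit of the enzyme that cuts the 5′ ends of mitochondrial tRNAs (-0.76), and SLIRP, partner of LRPPRC in holding mitochondrial mRNAs (-0.68). RRM2B, a subunit of ribonucleotide reductase, and TK2 were higher there (1.03 and 0.94). By role, 4 of 4 genes for processing, 6 of 13 for RNA stability and decay and 2 of 5 for transcription were called lower in excess medium. So were 1 of 1 for rRNA methylation and 4 of 9 for replication and nucleotide supply, beside 22.9% of all genes tested. Without cysteine the same roles had 3 of 4, 7 of 13, 2 of 5, 0 of 1 and 3 of 9 called lower, beside 8.51%. Whether these changes bear on the mitochondrial genes was not tested.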

How the data were processed

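RNA from 2 cysteine-free, 4 complete and 4 excess-cysteine cultures of HEK293T was analysed from 1 table, which the authors deposited as a normalized signal: per the paper's methods, reads were aligned with STAR to GRCh38, counted on Ensembl genes with featureCounts (the labels' tool list names HTSeq) and divided by DESeq2 size factors. All values were whole multiples (100% within 0.01) of 1 step per library, from which reads were recovered. Genes reaching 10 in 3 or more libraries were kept (29045). Log2(value + 1) was fitted with limma 3.58.1 in R 4.3.3 (lmFit, eBayes with trend), 2-sided, 2 groups per fit, with Benjamini-Hochberg adjustment over all genes kept and a threshold of 0.01. The tests were checked on simulated data. Ratios and shares were compared with exact permutation tests over libraries, adjusted over the 12 ratios or 7 shares and read at 0.05.

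Gene positions and sequences come from GENCODE release 44 and GRCh38. Levels between genes are normalized counts per kb. All 37 mitochondrial genes are named, with the 3 nuclear copies highest in complete medium and, per comparison, the 2 largest called increases and decreases of the 32 machinery genes. The members and lists were chosen with earlier results of these data known. Every pair of replicates differed beyond sampling noise (chi-square per degree of freedom 3.45 to 14.0). Across genes, same-numbered libraries of different media had deviations from their group means that correlated at -0.0281 to 0.0392, so no pairing was used. Alternatives were pseudocounts of 0.5 and 10, no filter and a minimum of 50, equal totals, quantile normalization, all groups in 1 fit, the replicate block, DESeq2 1.42.0 or edgeR 4.0.16 run on reads, a threshold of 0.05, and leaving out each library.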

Additional observations from a re-analysis of the deposited data

Results flagged for a closer look

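Of 100 groups of 4 libraries examined for a library that stands apart (the 37 genes, the 12 ratios and the mitochondrial share, in complete and in excess medium), 10 had a gap larger than the critical value of Dixon's test, as a share of their range, where about 1 in 20 groups does so by chance. In 6 of the 10 the library was excess replicate 1, the deepest. It was highest for MT-CO1 (6564 against 3599 to 3938 normalized counts, a gap of 0.886 of the range), MT-CO3 (1617 against 907 to 994, 0.878), MT-ND4 (1890 against 1115 to 1205, 0.884), MT-CYB (1265 against 774 to 826, 0.894) and MT-TL2 (17.97 against 5.43 to 6.83, 0.889), and lowest for the log2 rRNA to mRNA ratio (0.70 against 1.40 to 1.52, 0.855). Without it all 37 genes were still called lower by limma. Excess replicate 3 was lowest for MT-TM (41.8 against 54.4 to 56.5, 0.856). Complete replicate 4 was lowest for MT-RNR1 (71126 against 82175 to 84131, 0.850) and MT-TD (144 against 187 to 195, 0.840), and complete replicate 2 was highest for MT-TE (3043 against 2616 to 2655, 0.908).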

How the results depend on the processing

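In excess medium each of the 37 genes was called lower under every alternative run with limma, edgeR or DESeq2, leaving out each library included. In cysteine-free medium the count of 12 called, beside 15.9% of all genes, became 19 at a threshold of 0.05 (27.5% of all genes), 6 with all 3 groups in 1 fit (22.1% of all genes, so that the members' share of 16.2% fell below that of all genes) and 0 with no filter on low values (1.29% of all genes; limma, 17 of 37 with an unadjusted p under 0.05; edgeR called 14 and DESeq2 15 with the filter). Leaving out 1 library gave 4 to 13. With the replicate number as a block, 15 genes were called without cysteine, 10 of them among the 12, while the share of all genes called rose to 22.5%, and 37 in excess (46.1% of all genes), while 0 of the 12 ratios passed in excess, since 4 pairs cannot reach 0.05. No gene called in the main fit changed direction. Among genes not called there, the log2 fold change without cysteine turned to -0.031 for MT-TQ and -0.18 for MT-CO3 with quantile normalization. MT-CO3 was then called lower (limma adjusted p = 2.00e-03). With the block the values turned to -0.011 for MT-ND1, -0.014 for MT-TQ, -0.025 for MT-CO3 and -0.020 for MT-ND5. The causes were not tested. Leaving out 1 library, these uncalled values ranged from -0.066 to 0.14 for MT-ND1, -0.036 to 0.093 for MT-TQ, -0.060 to 0.14 for MT-TC, -0.13 to 0.0018 for MT-TY, -0.031 to 0.067 for MT-CO3, -0.024 to 0.057 for MT-TG and -0.11 to 0.21 for MT-ND5, the log2 ratio difference from -0.090 to 0.12 for MT-ND6 to heavy-strand mRNAs and from -0.33 to 0.031 for MT-TK to MT-CO2. The extremes of 8 of these 9 came from leaving out either cysteine-free library. In excess medium tRNA genes held 2 to 404 reads per library and mRNAs 113 to 10225, so among the 37 genes low counts bear most on the tRNA genes there. The 2 cysteine-free libraries limit the comparison of cysteine-free with complete medium.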
